A study of Mus musculus with 10 samples.

Results

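Fatty acid oxidation in the liver was followed through 38 named genes, of which 37 were found among the 19938 genes that the arrays named by a single symbol, while Ucp2 is not analysed here. Members were taken by symbol, current or older, and each was read through its feature (a set of probes summarized to 1 value) with the highest mean over all arrays. They comprised 18 mitochondrial genes, 12 genes of peroxisomes and of omega oxidation, 2 genes whose products work in both organelles and 5 regulators or other targets of the same control. The tissue was whole liver of male C57BL/6J mice that received an adenovirus by tail vein at 8 weeks of age and were studied fed, 3 weeks later. The virus encoded Phf2, a histone demethylase, in 5 mice (Phf2 mice) and GFP, a fluorescent protein, in 5 mice (GFP mice), so that the controls also carried a viral infection. Each liver was read on 1 Affymetrix Gene ST array, and by the labels the arrays are biological replicates, so that the p-values measure the spread between these mice. The promoter that drives the adenoviral sequence was not stated for these mice.

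Long-chain fatty acids enter mitochondria as carnitine esters and are cut there, step by step, to acetyl-CoA, with the electrons passed on to the respiratory chain. Peroxisomes shorten very long, branched and dicarboxylic chains, the last of which arise from omega-hydroxylation by Cyp4a enzymes, and thioesterases release free acids from their CoA esters in both organelles. In mouse liver the nuclear receptor PPARα is known to drive genes of all these routes in fasting, whereas malonyl-CoA, an intermediate of fatty acid synthesis, inhibits entry into mitochondria. The comparison of Phf2 with GFP mice asks which of these routes differed in transcript level.

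Deposited values were log2 intensities after RMA, which corrects background, brings the arrays to 1 distribution and summarizes probes, so that a difference of 1 on this scale is a doubling. Array medians lay between 5.06 and 5.18, and arrays correlated at 0.9783 to 0.9932 over all features. Genes were compared with limma, and a gene is called where its p, after Benjamini-Hochberg adjustment over the 19938 genes, is under 0.05. Of all genes 9.67% were called, 5.43% higher and 4.24% lower in Phf2 mice, and with each array centred on its own median 829 genes were higher and 959 lower. The endogenous gene Phf2 read 6.27 to 6.58 in Phf2 mice and 6.32 to 6.54 in GFP mice, through a feature of which it is not known whether it reads the injected sequence, so that it does not check the labels. In whole liver, fewer cells of a type and less RNA per cell cannot be told apart.

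The arrays carried RNA of cells other than hepatocytes. Of 8 markers of T and NK cells tested, 6 were higher and none was lower in Phf2 mice, and the log2 of their summed level was 8.76 to 9.48 in Phf2 mice and 7.97 to 8.28 in GFP mice. Of 10 hepatocyte markers none was higher and 4 were lower, with sums of 15.46 to 15.69 in Phf2 mice and 15.67 to 15.80 in GFP mice. Markers of the exocrine pancreas varied within both groups, with sums of 9.42 to 14.20 in Phf2 mice and 9.68 to 15.63 in GFP mice, and 0 of 11 were called. Of 8 Kupffer cell and macrophage markers 1 was higher and 3 were lower, with sums of 11.22 to 11.60 in Phf2 mice and 11.23 to 11.93 in GFP mice. Of 2 red cell markers 1 was lower, with sums of 7.36 to 7.90 in Phf2 mice and 8.23 to 8.57 in GFP mice, and of 6 endothelial markers 1 was higher. The mean of the pancreatic markers was highest on GFP replicate 1 (12.08) and on Phf2 replicates 2 (10.50) and 3 (9.80). The part of these markers in the results was not tested, but with the pancreatic mean as a covariate, chosen after seeing the data, 9 members were higher and 6 lower, against 5 and 1 without the 3 arrays named.

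Of the 37 members, 9 were higher in Phf2 mice (Vnn1, Acot3, Acot2, Acot4, Acaa1b, Crat, Pex11a, Ehhadh and Hadhb), 4 were lower (Cpt1a, Creb3l3, Etfdh and Acaa2) and 24 were not called. The called members made up 35.1%, against 9.67% of all genes. Groups did not overlap for 14 members, of which 3 (Hsd17b4, Hadh and Eci2) were not called, against 9.08% of all genes. The median difference was 0.03 over the members and -0.01 over all genes. The study's own limits, 1.5-fold and an unadjusted p of 0.05, were passed by 3 members (Vnn1, Acot3 and Acot2), all higher, against 3.54% of all genes.

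**Figure D1:**
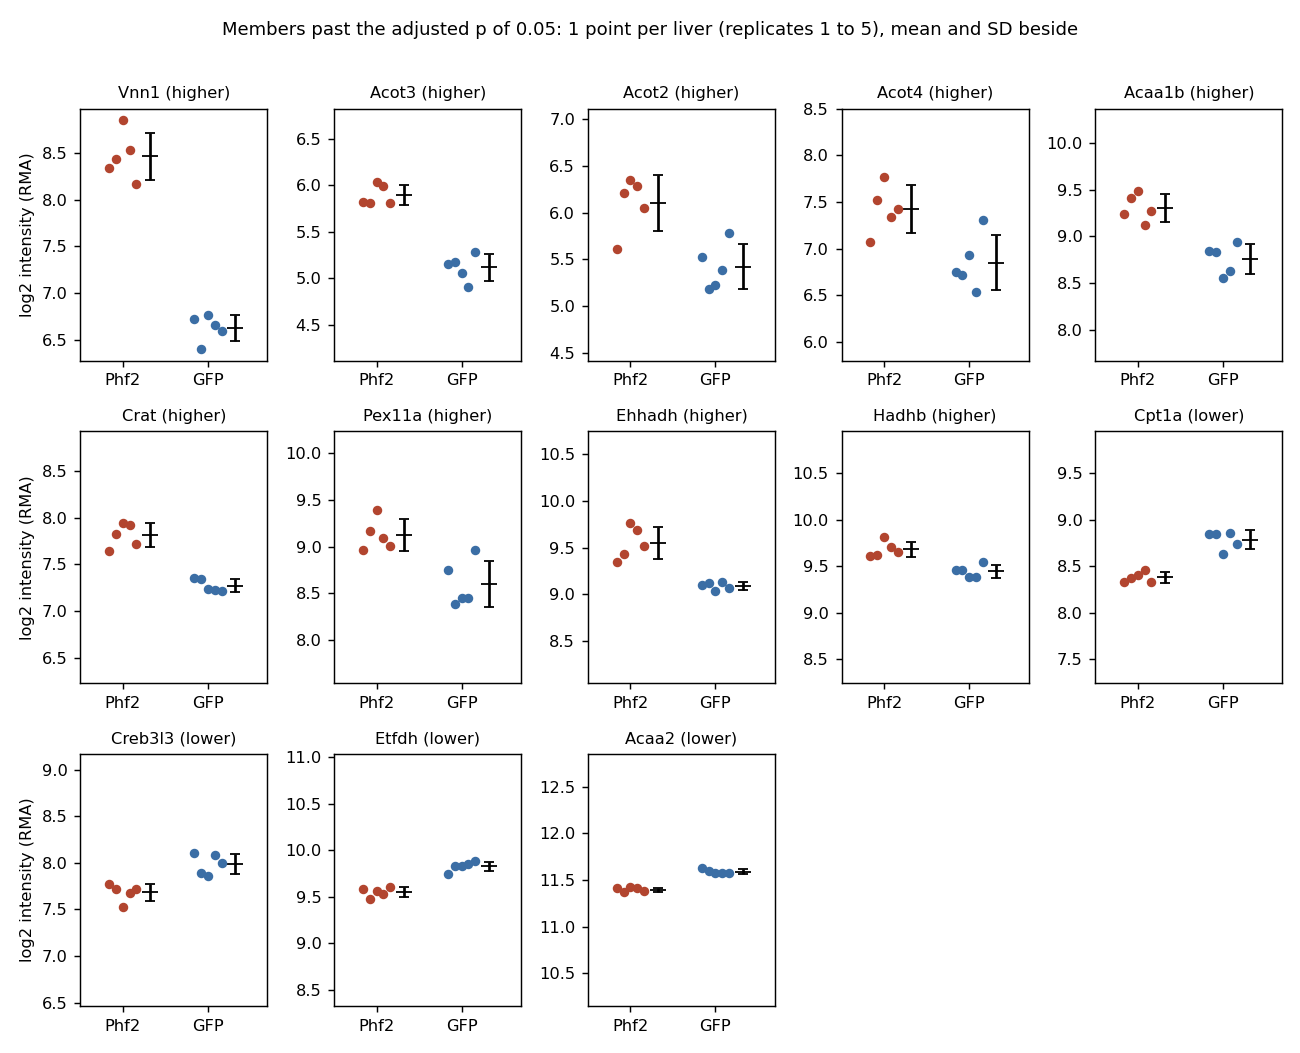
Level of the 13 called members in each liver (vertical axes, log2 RMA intensity, each spanning the same range of log2 units). Points are the 5 Phf2 and the 5 GFP livers in the order of their replicate numbers, and bars are the mean and SD. Vnn1 stands apart at 8.17 to 8.85 in Phf2 livers and 6.40 to 6.76 in GFP livers, and points of the groups share a range for Acot2 and Acot4.

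Differences of all members were small beside that of Vnn1. The thioesterases Acot3 and Acot2 followed it, and the falls were no larger than the -0.40 of Cpt1a.

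**Figure D2:**
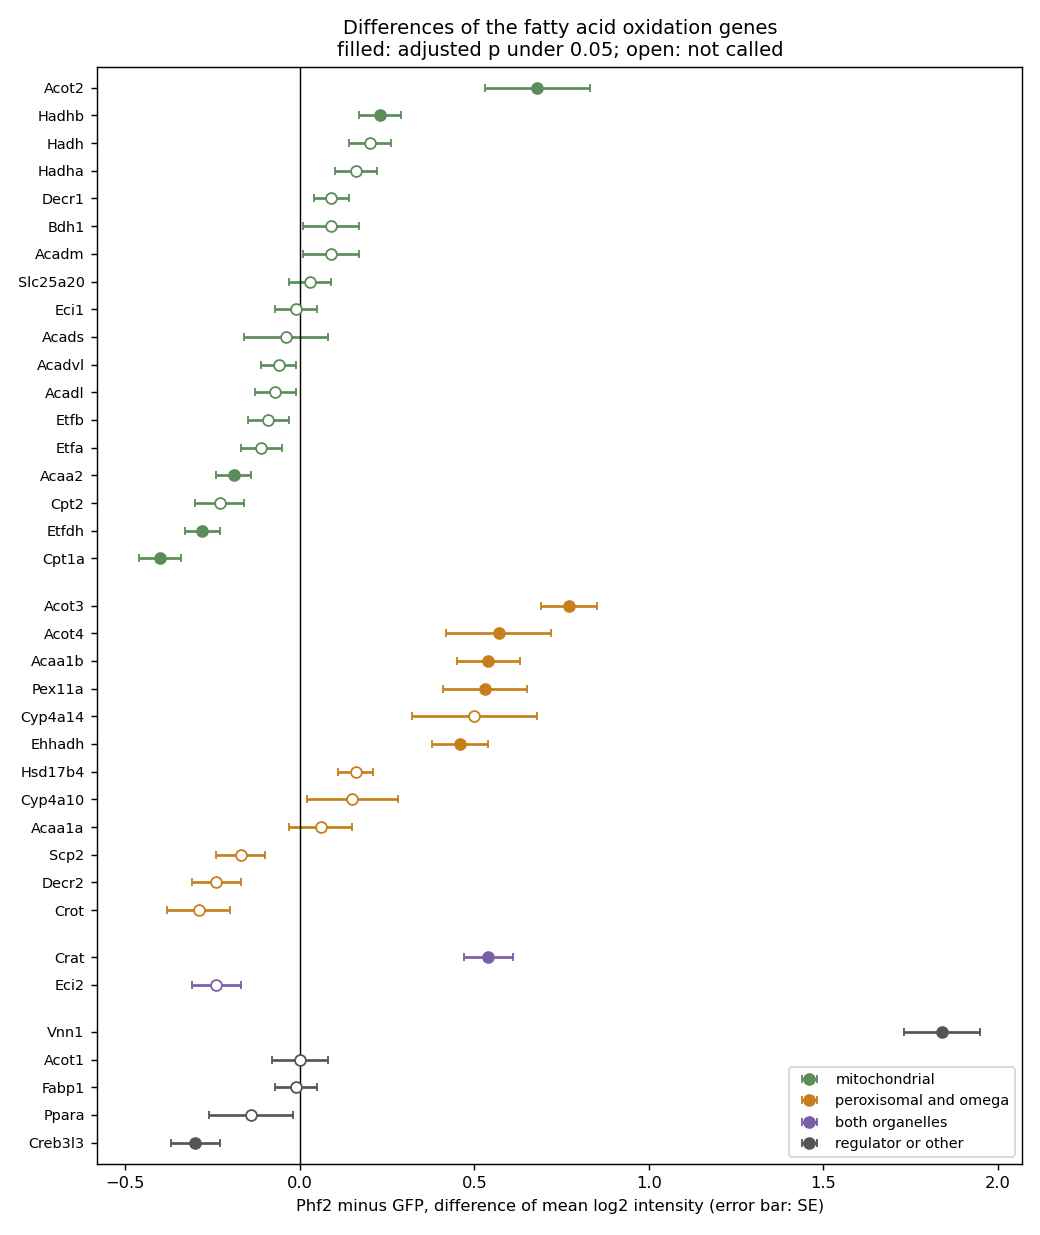
Difference of mean log2 intensity (Phf2 minus GFP, horizontal axis) of the 37 members by class, with its standard error from limma. Filled points passed an adjusted p of 0.05, and the 12 genes of peroxisomes and omega oxidation run from -0.29 (Crot) to 0.77 (Acot3).

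Promoters of RefSeq (GRCm38.p6, 250 bases before to 50 after the start) were at hand for 30 of the 37 members and for 10 of the 13 called ones. They were searched on both strands for a PPAR element (the half-site AGGNCA repeated after 1 spacer base), the E-box CACGTG, which reads the same on both strands, and the antioxidant element TGACNNNGC. The PPAR element lay in 0.381% of 32851 promoters and in 1 member (Fabp1, 67 bases before the start, on the minus strand), the E-box in 7.15% and in 1 member (Acot4, 66 bases before), and the antioxidant element in 12.4% and in 4 members (Ehhadh, Acot3, Fabp1 and Scp2). The shares count promoters and the members count genes, of which Acot3 had more than 1 promoter, so the units differ. A match is a description of letters and not a bound site. An element with other letters or outside these bases would be missed. Printed here 5′ to 3′, with matches in capitals, are promoters of 3 higher members, Ehhadh (chr16:21787785-21788084, minus strand), Acot3 (chr12:84051894-84052193, plus strand) and Acot4 (chr12:84038129-84038428, plus strand), and that of Fabp1 (chr6:71199629-71199928, plus strand), which held the PPAR element without a called difference.
Ehhadh: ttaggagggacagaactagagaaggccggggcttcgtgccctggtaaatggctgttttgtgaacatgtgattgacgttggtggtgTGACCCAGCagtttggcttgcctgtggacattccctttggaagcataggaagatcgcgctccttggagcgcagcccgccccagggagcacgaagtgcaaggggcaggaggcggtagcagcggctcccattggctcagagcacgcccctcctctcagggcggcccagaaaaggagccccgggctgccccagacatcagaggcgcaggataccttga
Acot3: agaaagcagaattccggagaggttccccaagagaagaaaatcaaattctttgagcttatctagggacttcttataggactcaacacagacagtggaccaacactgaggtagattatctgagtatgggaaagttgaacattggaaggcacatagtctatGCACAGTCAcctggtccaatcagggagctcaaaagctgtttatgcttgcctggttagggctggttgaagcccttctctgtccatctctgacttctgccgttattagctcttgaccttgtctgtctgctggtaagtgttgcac
Acot4: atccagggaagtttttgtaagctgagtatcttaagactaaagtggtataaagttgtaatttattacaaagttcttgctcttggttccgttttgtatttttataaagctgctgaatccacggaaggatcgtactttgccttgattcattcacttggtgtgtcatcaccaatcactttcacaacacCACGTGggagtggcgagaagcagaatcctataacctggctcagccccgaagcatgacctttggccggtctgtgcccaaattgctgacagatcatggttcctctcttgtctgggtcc
Fabp1: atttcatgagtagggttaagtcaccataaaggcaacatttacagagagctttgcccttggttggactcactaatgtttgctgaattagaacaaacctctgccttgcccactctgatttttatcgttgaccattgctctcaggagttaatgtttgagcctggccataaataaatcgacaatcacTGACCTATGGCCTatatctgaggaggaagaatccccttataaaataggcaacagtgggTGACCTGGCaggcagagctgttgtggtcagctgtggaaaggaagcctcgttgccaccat

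Of the 3 transcripts of the carnitine shuttle, that of Cpt1a was lower. Cpt1a, the carnitine palmitoyltransferase of the outer membrane, which is rate-limiting and the target of malonyl-CoA, read 8.33, 8.37, 8.41, 8.46 and 8.33 in Phf2 mice, against 8.84, 8.85, 8.63, 8.86 and 8.74 in GFP mice. Every Phf2 liver lay below every GFP liver. The difference was -0.40 on the log2 scale (standard error 0.06, 0.756-fold, adjusted p = 0.00162 from limma; exact permutation test, p = 0.00794, the smallest that 5 against 5 arrays allow). Cpt2, which reforms the acyl-CoA inside, averaged 9.17 ± 0.10 in Phf2 mice and 9.40 ± 0.10 in GFP mice (SD, n = 5 each) and was not called (-0.23, adjusted p = 0.0621 from limma), but passed without Phf2 replicate 1, its highest Phf2 array (0.0295). Slc25a20, the carrier between both enzymes, had a difference of 0.03 (standard error 0.06).

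The acyl-CoA dehydrogenases, which start each round of mitochondrial β-oxidation, were not called. Acadvl, Acadl, Acadm and Acads, for very long to short chains, had differences between -0.07 (Acadl) and 0.09 (Acadm), each within 2 standard errors of 0. Acads varied most within a group, with an SD of 0.28 in GFP mice against 0.11 in Phf2 mice.

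Of the next enzymes, Hadhb was higher and Acaa2 lower. Hadha and Hadhb encode the subunits of the trifunctional protein, which hydrates, oxidizes and cleaves long chains. Hadhb read 9.61, 9.62, 9.81, 9.71 and 9.65 in Phf2 mice and 9.46, 9.46, 9.38, 9.38 and 9.55 in GFP mice. The groups did not overlap, and the difference was 0.23 (standard error 0.06, adjusted p = 0.0338 from limma). A further feature of Hadhb differed from this one by at most 0.05 on any array and had the same difference, with an adjusted p over all features of 0.0591. Hadha, its direct neighbour in the genome, had 0.16 (standard error 0.06, adjusted p = 0.149), and Hadh, the dehydrogenase for shorter chains, 0.20 (standard error 0.06, adjusted p = 0.0547), with no overlap between groups and a call without Phf2 replicate 1 (0.0375). The call of Hadhb was lost without Phf2 replicate 2 (0.0554), 3 (0.0898) or 4 (0.0846), without GFP replicate 1 (0.0647), 2 (0.0570), 3 (0.0665) or 4 (0.0771), and under median centring (0.0829).

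Acaa2 is the mitochondrial thiolase that ends the round. It read 11.41, 11.37, 11.42, 11.41 and 11.38 in Phf2 mice, against 11.63, 11.60, 11.58, 11.57 and 11.57 in GFP mice. Both groups were narrow and did not overlap, and the difference was -0.19 (standard error 0.05, adjusted p = 0.0289 from limma). This call was lost without Phf2 replicate 1 (0.0526), 2 (0.0753), 3 (0.0578), 4 (0.0624) or 5 (0.0528) and without GFP replicate 1 (0.0732) or 2 (0.0510).

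Among transcripts of electron transfer that of Etfdh was lower, the enzyme that hands the electrons of acyl-CoA dehydrogenases to ubiquinone. Etfdh read 9.58, 9.48, 9.56, 9.53 and 9.61 in Phf2 mice and 9.74, 9.83, 9.83, 9.85 and 9.88 in GFP mice. No Phf2 liver reached a GFP liver, with a difference of -0.28 (standard error 0.05, adjusted p = 0.00671 from limma). Etfa and Etfb, the subunits of the flavoprotein that feeds Etfdh, had -0.11 and -0.09 (adjusted p = 0.346 and 0.419).

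The auxiliary enzymes Decr1 and Eci1, which prepare unsaturated chains, had differences of 0.09 and -0.01, and Bdh1, which interconverts the ketone bodies, one of 0.09, and none was called. Acot2, the mitochondrial acyl-CoA thioesterase, was the other higher member of the mitochondrial class. It read 5.61, 6.21, 6.35, 6.29 and 6.05 in Phf2 mice, against 5.53, 5.18, 5.23, 5.39 and 5.78 in GFP mice. Phf2 replicate 1 lay below GFP replicate 5, so that the groups overlapped, with a difference of 0.68 (standard error 0.15, 1.60-fold, adjusted p = 0.0113 from limma; exact permutation test, p = 0.0159).

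In the peroxisomal β-oxidation chain the bifunctional enzyme and 1 of its thiolases were higher. Ehhadh, which hydrates and oxidizes straight and dicarboxylic chains, read 9.35, 9.43, 9.76, 9.69 and 9.52 in Phf2 mice and 9.10, 9.12, 9.03, 9.13 and 9.07 in GFP mice. The lowest Phf2 liver was above all GFP livers, and the difference was 0.46 (standard error 0.08, 1.37-fold, adjusted p = 0.00324 from limma). Hsd17b4, the second bifunctional enzyme, which takes branched chains too, averaged 11.22 ± 0.04 in Phf2 mice and 11.07 ± 0.05 in GFP mice (SD, n = 5 each). Its groups did not overlap, but it was not called (0.16, adjusted p = 0.0847).

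Acaa1b and Acaa1a encode close copies of the peroxisomal thiolase. Acaa1b read 9.24, 9.41, 9.49, 9.12 and 9.27 in Phf2 mice and 8.84, 8.83, 8.55, 8.63 and 8.94 in GFP mice, without overlap (difference 0.54, standard error 0.09, adjusted p = 0.00262 from limma). Acaa1a averaged 7.44 ± 0.14 in Phf2 mice and 7.38 ± 0.15 in GFP mice (SD, n = 5 each), a difference of 0.06 (adjusted p = 0.780). The copies are similar enough that probes could read both, and a difference between them was not tested. Scp2, whose longer product is a thiolase for branched chains, had -0.17 (adjusted p = 0.186).

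Of 3 genes around the peroxisomal chain, Pex11a was higher and Decr2 and Crot were not called. Pex11a, which takes part in peroxisome division, read 8.96, 9.17, 9.39, 9.09 and 9.01 in Phf2 mice, against 8.75, 8.38, 8.45, 8.45 and 8.96 in GFP mice. GFP replicate 5 met the lowest Phf2 liver to 2 decimals, and the difference was 0.53 (standard error 0.12, adjusted p = 0.0141 from limma). Decr2, the peroxisomal reductase for unsaturated chains, had -0.24 (adjusted p = 0.0642) and passed without Phf2 replicate 1 (0.0343). Crot, which makes carnitine esters for export to mitochondria, had -0.29 (adjusted p = 0.0637) and passed without GFP replicate 1 (0.0189).

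The thioesterases Acot3 and Acot4, of peroxisomes, were higher. Acot3 read 5.82, 5.81, 6.03, 5.99 and 5.81 in Phf2 mice and 5.16, 5.18, 5.06, 4.91 and 5.28 in GFP mice. The groups were clearly apart, with a difference of 0.77 (standard error 0.08, 1.71-fold, adjusted p = 9.36e-05 from limma). Acot4, which acts on the CoA esters of dicarboxylic acids, read 7.07, 7.52, 7.77, 7.34 and 7.42 in Phf2 mice and 6.75, 6.72, 6.93, 6.53 and 7.31 in GFP mice. GFP replicate 5 lay above Phf2 replicate 1, and the difference was 0.57 (standard error 0.15, adjusted p = 0.0297). Its call was lost without Phf2 replicate 2 (0.0739), 3 (0.0679) or 4 (0.0554) and without GFP replicate 1 (0.0690), 2 (0.0718) or 4 (0.0713).

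The Acot genes lie side by side. On chromosome 12 the order of 6 neighbouring protein-coding genes is Acot2, Acot1, Acot4, Acot3, Acot5 and Acot6, of which the last 2 are no members. Acot1, the cytosolic enzyme and a known PPARα target, averaged 4.22 ± 0.10 in Phf2 mice and 4.23 ± 0.14 in GFP mice (SD, n = 5 each) and did not pass (adjusted p = 0.995). The other 5 were called higher, Acot5 by 0.31 (adjusted p = 0.00933) and Acot6 by 0.33 (adjusted p = 0.0414), both named here for their place in the genome. Without 1 array the call of Acot6 was lost in 7 cases, with adjusted p up to 0.11, which were Phf2 replicates 1 (0.0721), 3 (0.0718), 4 (0.11) and 5 (0.0710) and GFP replicates 1 (0.0972), 2 (0.0759) and 3 (0.0829). These genes are close copies, so that shared probes could spread 1 gene's signal to another, and in mean level Acot1 lay at percentile 24.7 of all genes and Acot5 at percentile 8.7. Acot5 fell under the filter on dim features, and its call was lost with the replicate block (0.0507) and without the 3 arrays highest in pancreatic markers (0.0986).

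The omega-hydroxylases among the members, Cyp4a14 and Cyp4a10, were not called. Such enzymes oxidize the far end of fatty acids, and these genes are classical PPARα targets in mouse. Among genes of this kind that are no members, Cyp4f14 and Cyp4a12b were lower (values below), and Cyp4a12a and Cyp4a31 were not called. Cyp4a14 read 11.08, 11.11, 11.27, 11.48 and 11.13 in Phf2 mice, against 10.64, 10.01, 11.29, 10.84 and 10.80 in GFP mice. GFP replicate 3 lay within the Phf2 livers and GFP replicate 2 far below, and the difference of 0.50 (standard error 0.18) had an adjusted p of 0.121 from limma, or 0.0265 without GFP replicate 3 (difference 0.641). Without GFP replicate 2 the difference was 0.322 (adjusted p = 0.172). Cyp4a10 had 0.15 (standard error 0.13, adjusted p = 0.596), and a feature that the annotation shares between Cyp4a10, Cyp4a31 and Cyp4a32 had 0.06 (standard error 0.14).

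Of the 2 genes placed in both organelles, Crat was higher and Eci2 was not called. Crat, the carnitine acetyltransferase, which buffers acetyl-CoA, read 7.64, 7.83, 7.94, 7.92 and 7.72 in Phf2 mice and 7.35, 7.34, 7.23, 7.22 and 7.21 in GFP mice. The groups were apart by more than the range of the GFP livers, with a difference of 0.54 (standard error 0.07, 1.45-fold, adjusted p = 0.000524 from limma). Eci2, an enoyl-CoA isomerase, averaged 9.39 ± 0.13 in Phf2 mice and 9.62 ± 0.05 in GFP mice (SD, n = 5 each), without overlap, and its adjusted p of 0.0504 lay just above the threshold (0.0435 without Phf2 replicate 3).

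Of the transcription factors among the members, Ppara was not called and Creb3l3 was lower. Ppara read 8.89, 8.67, 8.60, 8.38 and 8.80 in Phf2 mice and 9.02, 9.07, 8.77, 8.54 and 8.65 in GFP mice. The groups overlapped widely, with a difference of -0.14 (standard error 0.12, adjusted p = 0.555 from limma). Creb3l3, a membrane-bound transcription factor of the fasting liver that works with PPARα, read 7.77, 7.72, 7.53, 7.68 and 7.72 in Phf2 mice, against 8.10, 7.89, 7.86, 8.08 and 8.00 in GFP mice. All Phf2 livers were lower, by -0.30 (standard error 0.07, adjusted p = 0.0165).

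Vnn1 had the largest difference of all members. It encodes a pantetheinase that recycles the vitamin part of CoA and is a known PPARα target in mouse liver. Vnn1 read 8.34, 8.44, 8.85, 8.53 and 8.17 in Phf2 mice and 6.72, 6.40, 6.76, 6.66 and 6.59 in GFP mice. The lowest Phf2 liver exceeded the highest GFP liver by more than the range within either group. The difference was 1.84 (standard error 0.11, 3.58-fold, adjusted p = 2.08e-06 from limma). Fabp1, the abundant fatty acid binding protein of hepatocytes and likewise a target, averaged 12.54 ± 0.08 in Phf2 mice and 12.55 ± 0.07 in GFP mice (SD, n = 5 each). Its level was at percentile 99.9 of all genes, and its difference of -0.01 had an adjusted p of 0.969.

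The classes were then set side by side. Among 12 genes of peroxisomes and omega oxidation, 5 were higher, none was lower and 7 were not called, with a median difference of 0.31, and 9 of the 12 lay above 0. Among 18 mitochondrial genes, 2 were higher, 3 were lower and 13 were not called, with a median of -0.03, and 8 lay above 0. For comparison, 5.43% of all genes were higher and 4.24% lower, with a median of -0.01. The class counts cover members only. Further genes of peroxisomes and omega oxidation went both ways, and some were not called. Among them Abcd2 (1.82), Aldh3a2 (0.61), Acot6 (0.33), Acot5 (0.31), Hsdl2 (0.31) and Acot8 (0.28) were higher. Nudt7 (-1.16), Cyp4f14 (-0.88), Hacl1 (-0.61), Cyp4a12b (-0.58), Amacr (-0.40), Phyh (-0.36) and Slc27a2 (-0.23) were lower. The calls of Acot5, Acot6, Acot8, Hsdl2 and Slc27a2 were lost without the 3 arrays highest in pancreatic markers. The peroxisomal and omega median was 0.158 when Eci2 was counted with peroxisomes, and the mitochondrial median was 0.0136 without GFP replicate 4. Without Phf2 replicate 1, 3 mitochondrial genes were higher, and without any 1 of Phf2 replicates 2, 3 and 4 or GFP replicates 1, 2, 3 and 4 only 1 was, while 1 peroxisomal or omega gene was lower without Phf2 replicate 1 or GFP replicate 1.

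Per liver, the mean of the peroxisomal and omega genes, taken as the distance from the GFP mean of each gene, was 0.21, 0.24, 0.33, 0.24 and 0.24 in Phf2 mice and -0.01, -0.15, 0.03, -0.01 and 0.14 in GFP mice. The groups did not overlap. The same mean of the mitochondrial genes was -0.02, 0.00, 0.07, 0.02 and -0.04 in Phf2 mice and 0.04, -0.02, -0.09, 0.01 and 0.06 in GFP mice, and the groups overlapped. The peroxisomal and omega mean minus the mitochondrial mean was 0.23, 0.24, 0.26, 0.23 and 0.28 in Phf2 mice and -0.05, -0.13, 0.12, -0.02 and 0.08 in GFP mice, again without overlap. No p is given for these means, since the members were chosen with results of these data known.

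**Figure D3:**
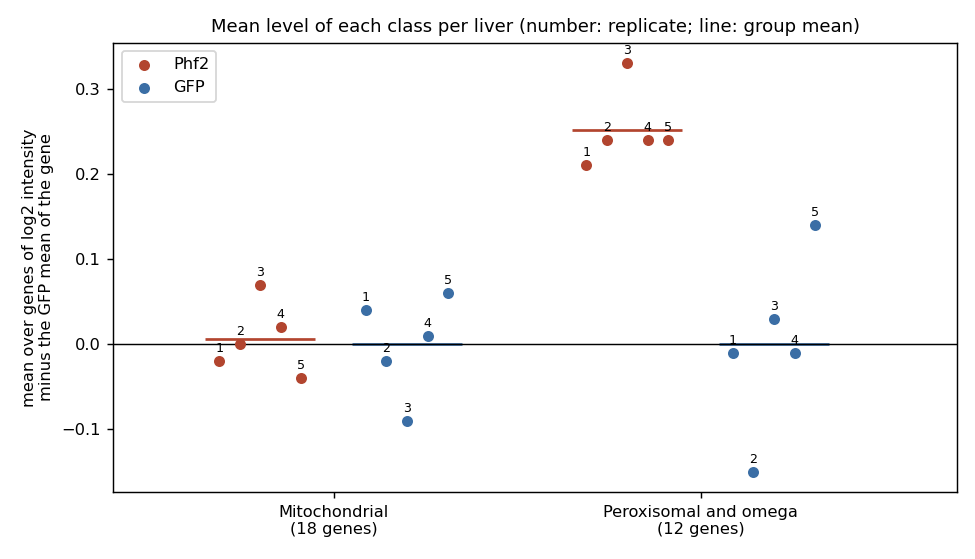
Mean distance from the GFP mean of each gene (vertical axis, log2 units) in each liver, over the 18 mitochondrial and the 12 peroxisomal and omega genes. Numbers are the replicates and lines the group means. The peroxisomal and omega means of Phf2 livers (0.21 to 0.33) lie above those of GFP livers (-0.15 to 0.14), and the mitochondrial means of both groups lie between -0.09 and 0.07.

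Phf2 livers did not differ from GFP livers to the same extent. Phf2 replicate 3 was the highest Phf2 liver in 9 of the 9 higher members, and Phf2 replicate 1 the lowest in 6 of 9. On the first principal component of all genes (41.2% of the variance), Phf2 replicates 1 to 5 lay at 6.38, 19.90, 34.28, 27.93 and 4.26 and GFP replicates between -22.45 and -14.07, so that Phf2 replicate 3 was the farthest from the GFP livers there too. Phf2 replicates 1 and 5 also had the lowest pancreatic marker means of the Phf2 mice, 5.72 and 5.96, and the part of this in the order of the livers was not tested.

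Of 60 further genes of the pathway and its control, 52 were tested. Of these, 9 were higher, 10 were lower and 33 were not called, with a median difference of 0.02 and no overlap for 21. Of all genes, 5.43% were higher, 4.24% were lower and 9.08% did not overlap. The list was chosen with earlier results of these data known. The largest rises were in a transporter, a hormone and regulators of fuel use. Abcd2, a peroxisomal importer of very long chains, had a difference of 1.82 (standard error 0.18, 3.53-fold, adjusted p = 5.90e-05 from limma). Fgf21, the fasting hormone of liver, read 5.99, 7.42, 8.06, 7.89 and 6.12 in Phf2 mice and 5.62, 5.64, 5.63, 5.53 and 5.79 in GFP mice. Phf2 replicates 2, 3 and 4 were well above the other two, and the difference was 1.46 (standard error 0.36, adjusted p = 0.0227), a call lost without Phf2 replicate 2 (0.0608) or 4 (0.0602) and without GFP replicate 2 (0.0504) or 4 (0.0516). The call of Fgf21 was also lost by the methods' t-test (0.101), with an intensity trend and a robust prior (0.0737), over all features (0.0579) and without the 3 arrays highest in pancreatic markers (difference 1.02, adjusted p = 0.223).

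Pdk4, the kinase that shuts pyruvate dehydrogenase, had 1.15 (standard error 0.20, adjusted p = 0.00341 from limma). Lpin1, a phosphatidate phosphatase that also acts as a partner of PPARα, had 0.88 (standard error 0.13, adjusted p = 0.00111). Aldh3a2, which oxidizes fatty aldehydes after omega-hydroxylation, had 0.61 (standard error 0.09, adjusted p = 0.00102). Ppargc1a, a coactivator of PPARα, had -0.09 (adjusted p = 0.771).

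The largest fall was in Nudt7, a peroxisomal hydrolase of CoA and its esters, at 10.79, 10.09, 9.68, 9.83 and 10.85 in Phf2 mice and 11.44, 11.49, 11.28, 11.37 and 11.47 in GFP mice. All Phf2 livers were lower, and replicates 2, 3 and 4 most so (-1.16, standard error 0.20, 0.447-fold, adjusted p = 0.00340 from limma). Cyp4f14, another omega-hydroxylase family member, fell by 0.88 (standard error 0.14, adjusted p = 0.00161). Acadsb, a dehydrogenase of short branched chains, fell by 0.74 (standard error 0.10, adjusted p = 0.000596). Rxra, the partner with which PPARα binds DNA, read 7.92, 7.83, 7.85, 7.84 and 7.90 in Phf2 mice and 8.53, 8.37, 8.56, 8.43 and 8.61 in GFP mice, a fall of 0.63 (standard error 0.06, adjusted p = 5.69e-05). Cyp4a12b, a male-typical omega-hydroxylase of mouse liver, had -0.58 (standard error 0.15, adjusted p = 0.0260), a call lost without Phf2 replicate 2 (0.0567) or 3 (0.0507) and without GFP replicate 1 (0.0568), 4 (0.0588) or 5 (0.0635).

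Hacl1, the lyase of peroxisomal alpha oxidation, averaged 10.07 ± 0.29 in Phf2 mice and 10.68 ± 0.03 in GFP mice (SD, n = 5 each), a difference of -0.61 (adjusted p = 0.00502 from limma). Phyh, the hydroxylase of the step before it, had -0.36 (adjusted p = 0.00487), and Amacr, a racemase that makes branched chains fit for oxidation, -0.40 (adjusted p = 0.0107). Phyh and Amacr were named after their values were seen. Genes for branched chains were not taken as a list, and among members that handle such chains Scp2 and Hsd17b4 were not called. Nor were 3 further genes for such chains by limma. These were Acox2 (-0.16, adjusted p = 0.15), Acox3 (-0.09, adjusted p = 0.576) and Abcd3 (0.07, adjusted p = 0.673). Without the 3 arrays highest in pancreatic markers, the calls of Nudt7 (difference -0.913, adjusted p = 0.0516), Hacl1 (-0.473, 0.0938), Phyh (-0.308, 0.123), Amacr (-0.339, 0.158) and Cyp4a12b (-0.578, 0.192) were lost, while those of Cyp4f14, Acadsb and Rxra held under all alternatives.

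**Figure D4:**
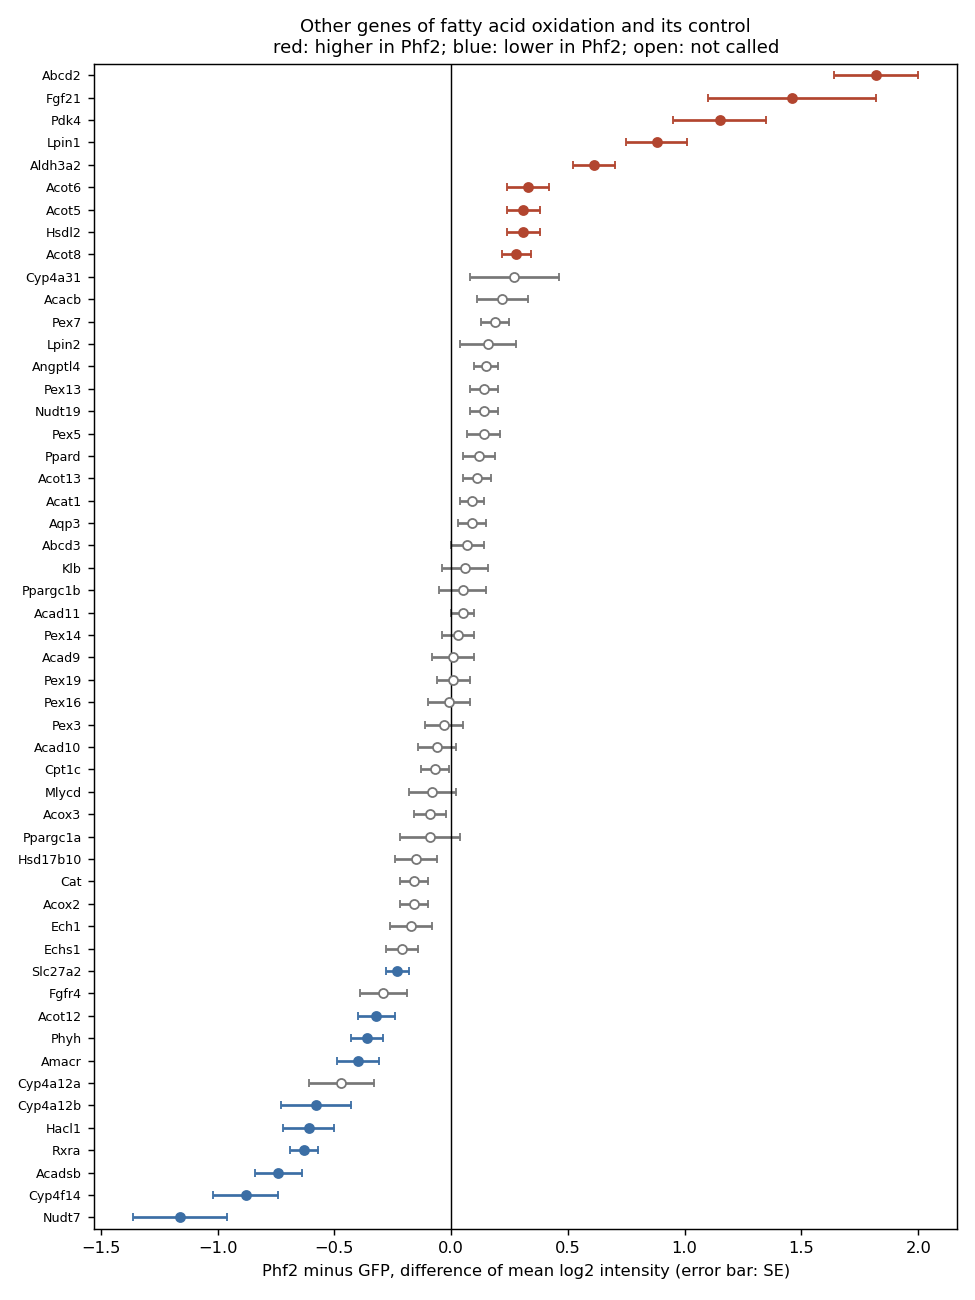
Difference of mean log2 intensity (Phf2 minus GFP, horizontal axis) of the 52 further pathway genes tested, with its standard error from limma. Red points were higher and blue points lower in Phf2 mice at an adjusted p of 0.05, open points were not called, and values run from -1.16 (Nudt7) to 1.82 (Abcd2).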

How the data were processed

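Liver RNA of 5 Phf2 and 5 GFP mice was read on 1 array each. The authors normalized the arrays with RMA and deposited log2 intensities for 35556 features, and RMA and Partek are named in the submitters' processing notes (versions: not given in the sources used here). In the methods stand a human array and an RNeasy kit, whereas the feature numbers match a mouse Gene ST annotation and the labels give another kit. The study left out mice that did not overexpress the protein. Through the platform annotation, 21789 features had 1 symbol, 1621 several and 12146 none, and the 999 genes with several features kept the one with the highest mean. Groups were taken from the labels. A linear model without covariates was fitted to each gene by lmFit and eBayes of limma 3.58.1 (R 4.3.3) with Benjamini-Hochberg adjustment over 19938 genes and a threshold of 0.05, and the procedure was tested on simulated data. For single members a two-sided exact permutation test over the 252 regroupings was added. No batch is given in the labels, and the number of arrays limits the precision.

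Members and lists were chosen with earlier results of these data known. All members are named, and of the other pathway genes up to 6 called with the largest rise, up to 6 with the largest fall, and a few genes fixed by name, of which Ppargc1a is reported here. Further genes of that list were named after their values were seen. The alternatives changed the test (the methods' t-test, a trended robust prior, weighted arrays, a replicate block, other thresholds), the scaling (further quantile normalization, median centring), the features (without the dimmest 30 percent, all of them, or averaged per gene), the classes of Crat and Eci2, or the arrays, each left out in turn. Those on pancreatic markers were chosen after seeing the data.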

Additional observations from a re-analysis of the deposited data

Results flagged for a closer look

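Among 116 groups of 5 livers (37 members and 21 further genes, each in both groups), 6 held a liver far from the other 4 of its group, where chance gives about 1 in 20. In Phf2 mice, replicate 1 was the highest for Cpt2 (9.34, the nearest other liver at 9.15) and for Eci1 (8.46, nearest 8.29). Phf2 replicate 3 was the highest for Hsd17b4 (11.29, nearest 11.22), and Phf2 replicate 4 the lowest for Fabp1 (12.40, nearest 12.58). In GFP mice, replicate 3 was the lowest for Bdh1 (6.83, nearest 7.11) and replicate 1 the highest for Eci2 (9.70, nearest 9.62). None of these members was called.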

How the results depend on the processing

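Of 13 called members, 6 (Cpt1a, Ehhadh, Acaa1b, Acot3, Crat and Vnn1) kept their call under all 21 alternatives with the 0.05 threshold. Of the 24 uncalled members, 7 passed under at least 1 of these. With the 1.5-fold limit, Cpt1a (0.756-fold), Ehhadh (1.37-fold), Acaa1b (1.46-fold) and Crat (1.45-fold) did not pass. By the methods' t-test the calls of Acot2 (0.0575), Pex11a (0.0586) and Acot4 (0.104) were lost, while Hsd17b4 (0.0147) and Hadh (0.0419) passed as higher. Without the 3 arrays highest in pancreatic markers, 5 members were higher and 1 lower, 0 mitochondrial genes higher and 1 lower, and 3 peroxisomal and omega genes higher, as Etfdh (0.0876) and Creb3l3 (0.228) were also lost, with fewer samples and 365 genes higher and 230 lower in all. At an adjusted p of 0.01, 5 members were higher and 2 lower, with 0 mitochondrial and 3 peroxisomal and omega genes higher. At 1.5-fold and an unadjusted p of 0.05, 3 were higher and 0 lower, with 1 mitochondrial gene higher and 0 lower and 1 peroxisomal or omega gene higher. With an intensity trend and a robust prior 8 members were lower, 2 of them peroxisomal or omega, with 3 mitochondrial genes higher. Without dim features 3 mitochondrial genes were higher. With Crat as mitochondrial, 3 mitochondrial genes were higher, and the peroxisomal and omega median was 0.158 with Eci2 added. Median centring gave 1 mitochondrial gene higher, 6 members lower and 1 peroxisomal or omega gene lower, all features 1 mitochondrial gene higher, and the pancreatic covariate 6 members and 1 peroxisomal or omega gene lower. Leaving out 1 array gave 7 to 10 members higher and 3 to 5 lower, 1 to 3 mitochondrial genes higher and 2 to 3 lower (median -0.0571 to 0.0136), and 4 to 6 peroxisomal and omega genes higher and 0 to 1 lower (median 0.235 to 0.335). The sign turned for Eci1 and Acot1 without the 3 arrays (0.0221 and 0.0272) and for Acot1 under quantile normalization (0.0108), and leaving out 1 array gave ranges of -0.142 to 0.0351 for Acads, -0.0447 to 0.0124 for Eci1, -0.00611 to 0.108 for Acaa1a, -0.0449 to 0.0412 for Acot1, -0.034 to 0.0282 for Fabp1 and -0.15 to 0.0412 for Ppargc1a. Same-numbered livers did not deviate together (correlations of -0.291 to -0.042). Such correlations cannot show whether livers of the same number shared any handling. With the replicate block, 8 members were higher and 3 lower, 1 mitochondrial gene was higher and 2 lower, and 5 peroxisomal and omega genes were higher, with Hadhb and Acaa2 lost (0.110 each). The cause of these changes was not tested, and 5 livers a group limit what small differences can show.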
